A study of Homo sapiens with 3 samples.

Results

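The genes of the protein arginine methyltransferases were followed after siRNA against PRMT6 in HEC1B, an established cell line from a human endometrial cancer. The members are 8 of the 26485 genes in the count table, taken by symbol: PRMT1, PRMT2, PRMT3, CARM1, PRMT5, PRMT6, PRMT7 and PRMT5-AS1, a noncoding gene on the strand opposite to PRMT5. Total RNA was measured at 48 h in 3 libraries. The siNC control is 1 library of cells labelled wild type. The group labelled as PRMT6 knockdown holds 2 libraries, each with a different siRNA, siPRMT6-1 and siPRMT6-2. All 3 come from a single cell line, and nothing in the labels says that they are separate cultures, so any p-value measures only the spread between these libraries.

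Protein arginine methyltransferases move a methyl group from S-adenosylmethionine to arginine side chains of histones, RNA-binding proteins and other substrates. Type I enzymes (PRMT1, PRMT2, PRMT3, CARM1, PRMT6 and PRMT8) end with asymmetric dimethylarginine, type II enzymes (PRMT5 and PRMT9) with symmetric dimethylarginine, and the type III enzyme PRMT7 with monomethylarginine. PRMT6 is mostly nuclear and is known for methylating arginine 2 of histone H3. The family shares substrates, so the comparison asked whether the other enzyme genes shift when PRMT6 is targeted.

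Trios of counts are given below in the order siNC, siPRMT6-1, siPRMT6-2. The library totals were 410916, 381628 and 362080 counts, so most members rest on few counts. Intervals below are at 95%, exact Poisson for a level and exact binomial (Clopper-Pearson) for a ratio or a share. They cover counting error only. CPM stands for counts scaled to a common depth, here with TMM library sizes. A list of 31 interferon-stimulated genes, led by IFITM3, PARP9, IFI6 and ISG15, summed to 229, 311 and 2952 counts, so the siPRMT6-2 library stands apart. Whether that has a part in the members' values was not tested. Of 6 epithelial markers, 4 had counts in every library, and KRT19 and CDH1 were at 0. KRT8 had 1329, 681 and 770 counts, most of the list's sum of 1621, 888 and 1096. KRT8 and KRT18 share exon bases on opposite strands. PAX8 had 158, 117 and 227 counts, so it was lower than siNC with siPRMT6-1, at 0.771 (0.602 to 0.985), and higher with siPRMT6-2, at 1.68 (1.37 to 2.07), and it shares exon bases with PAX8-AS1 on the opposite strand. Of 11 leukocyte, fibroblast and endothelial markers, 6 were at 0 throughout, among them PTPRC and COL1A2. Their sum was 543, 378 and 380 counts, most of it COL1A1. The part of these markers in the members' values was not tested.

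A strand-specific kit was used and strand setting 1 was given to the counter, and PRMT5 with PRMT5-AS1 shows what this setting decides. The 2 genes share 656 exon bases, of which 110 form a whole coding exon of PRMT5 (hg38 chr14:22923051-22923160). The shared exon is shown because the same bases count for one gene or the other only by strand. Each line reads 5′ to 3′ along the transcript of the named gene, from GENCODE release 29. Capitals mark the 110 shared bases and lower case the 20 transcript bases on either side.
PRMT5 (minus strand): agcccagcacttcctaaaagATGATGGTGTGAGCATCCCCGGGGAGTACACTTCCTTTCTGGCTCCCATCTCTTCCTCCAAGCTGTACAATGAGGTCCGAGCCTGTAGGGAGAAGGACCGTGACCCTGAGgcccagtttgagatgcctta
PRMT5-AS1 (plus strand): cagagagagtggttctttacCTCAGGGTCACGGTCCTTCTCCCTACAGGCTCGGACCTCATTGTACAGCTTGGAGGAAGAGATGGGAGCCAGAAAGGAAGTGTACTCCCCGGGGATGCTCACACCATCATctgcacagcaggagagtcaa
The capital stretches are reverse complements of each other. A read that lies wholly within these shared bases is told apart by orientation alone.

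The counts lay almost entirely on the antisense side of this pair. PRMT5 had 14, 23 and 24 counts. PRMT5-AS1 had 794, 769 and 596. PRMT5 therefore took 1.73% of the pair's counts with siNC (interval 0.9504 to 2.89%), 2.90% with siPRMT6-1 (1.85 to 4.33%) and 3.87% with siPRMT6-2 (2.50 to 5.71%). The interval of siNC overlaps those of both siRNA libraries. Overlap of separate intervals does not show that the shares are equal, and the difference between the shares was not tested. The table holds 171 such pairs, named with -AS1, sharing exon bases and with at least 100 counts over the 3 libraries. In 141 of them the antisense gene had more counts in siNC. The median share of the partner was 13.7%, and 17 pairs had a lower share than PRMT5. If the strand setting was the reverse of the library's own orientation, counts listed for PRMT5-AS1 would include those of PRMT5, and the counts of every member would be affected. The table alone does not tell these readings apart, so each value below is the count listed under a gene's name.

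**Figure D1:**
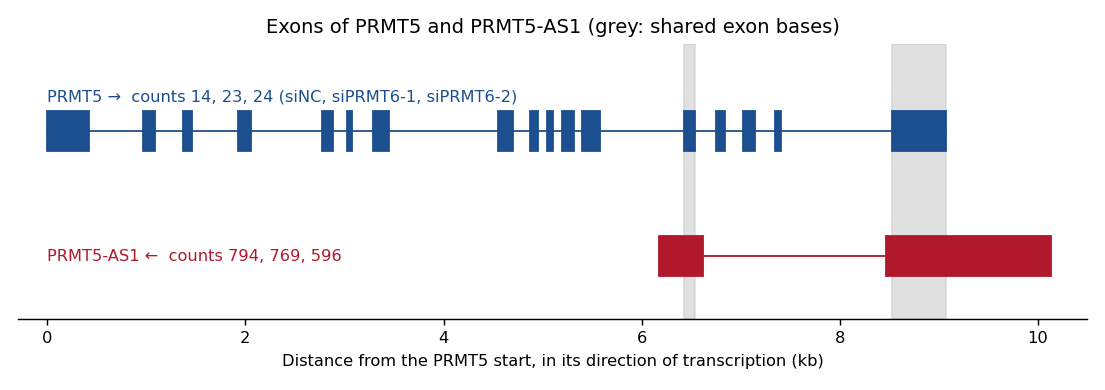
Exons of PRMT5 (blue, upper) and PRMT5-AS1 (red, lower) in the deposited gene models, by distance in kb from the PRMT5 start; arrows give the direction of transcription, and the counts are those of siNC, siPRMT6-1 and siPRMT6-2. Grey bands mark the 656 shared exon bases, 546 in the last exon of PRMT5 and 110 in a coding exon, where PRMT5-AS1 had 794, 769 and 596 counts over its whole length.

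PRMT6, the targeted gene, had fewer counts in both siRNA libraries. It is a gene with 1 exon of 2652 bases on the plus strand of chromosome 1 (hg38 chr1:107056645-107059296), with no opposite-strand exon in the table. It had 25, 4 and 7 counts. In CPM these are 64.8 (41.9 to 95.7), 10.8 (2.94 to 27.6) and 21.2 (8.53 to 43.7). The interval of siPRMT6-1 lies wholly below that of siNC, while the interval of siPRMT6-2 reaches into it. In bulk RNA, less of a transcript per cell and fewer cells that hold it cannot be told apart.

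Relative to siNC, PRMT6 stood at 0.167 with siPRMT6-1 (0.0421 to 0.482) and at 0.327 with siPRMT6-2 (0.119 to 0.778). These ratios share the single siNC library. Among the tested genes the ratio interval lay below 1 for 7.14% with siPRMT6-1 and for 8.82% with siPRMT6-2. Of the 6 members tested it did so for PRMT6 with siPRMT6-1, and for PRMT6 and PRMT5-AS1 with siPRMT6-2. PRMT6 passed the filter on low counts only through siNC, the library where it was highest. The depth did not separate the siRNA libraries from each other: siPRMT6-2 stood at 1.97 times siPRMT6-1 (0.4997 to 9.157). In log2 CPM with a prior count of 2, PRMT6 differed from siNC by -2.11 with siPRMT6-1 and by -1.40 with siPRMT6-2. Of the other genes among the 3331 with at least 20 counts in siNC, 2 were as low or lower with siPRMT6-1 and 39 with siPRMT6-2.

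In the quasi-likelihood F-test of edgeR over all genes, PRMT6 had a log2 fold change of -2.01 (SE 0.684), an unadjusted p of 0.0108 and an adjusted p of 1.00. The test called 0 of 6803 genes (0.0%) at an adjusted p under 0.05, and 186 genes (2.73%) had an unadjusted p under 0.05. DESeq2 called 0 genes and had 12 at an unadjusted p under 0.05. None of the members passed with either tool. The fit draws its 1 residual degree of freedom from the gap between the siRNA libraries and assumes that the lone control varies like them. To this it adds 12.8 prior degrees of freedom borrowed from the spread over all tested genes, so a gene's p-value rests mostly on that shared spread.

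Among the type I enzyme genes other than PRMT6, PRMT1 and CARM1 had enough counts to compare. PRMT1, the enzyme known for most asymmetric dimethylarginine in cells, had 60, 47 and 53 counts. Relative to siNC it was 0.815 (0.544 to 1.21) with siPRMT6-1 and 1.03 (0.700 to 1.52) with siPRMT6-2. The library of siPRMT6-1 was the lowest and all intervals overlap. At this depth counting error alone spans from 0.544 to 1.52 times siNC. The intervals compare single libraries and do not bound a shift of PRMT1 between conditions. The edgeR log2 fold change was -0.12 (SE 0.458, adjusted p = 1.00).

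CARM1, which methylates histone H3 at arginine 17 and coactivators, had 79, 77 and 58 counts. Its ratio to siNC was 1.01 (0.731 to 1.41) with siPRMT6-1 and 0.858 (0.601 to 1.22) with siPRMT6-2. The siPRMT6-2 library was the lowest, within the counting intervals of the others. The edgeR log2 fold change was -0.09 (SE 0.438, adjusted p = 1.00). CARM1 shares 5 exon bases with YIPF2 on the opposite strand in the table. In GENCODE release 29 the overlap is 588 bases, 19.8% of the CARM1 exons, so its counts are uncertain like those of PRMT5. YIPF2 itself had 103, 74 and 70 counts.

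PRMT2 and PRMT3 were at the floor of detection. PRMT2, a type I enzyme that also acts as a nuclear receptor coactivator, had 3, 4 and 5 counts. PRMT3, a cytosolic enzyme that methylates the ribosomal protein RPS2, had 0, 4 and 3 counts. For the count of 0 in siNC the Poisson interval reaches 3.689 counts, or 9.561 CPM. The ratio of PRMT3 to siNC has no upper bound, and its lower bound was 0.687 with siPRMT6-1 and 0.483 with siPRMT6-2, so the few counts could not separate the libraries. For PRMT2 the ratio to siNC ran from 0.235 to 9.47 with siPRMT6-1 and from 0.379 to 12.6 with siPRMT6-2. Neither gene passed the filter on low counts, and neither entered the edgeR test.

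PRMT5 and PRMT7, which make symmetric dimethylarginine and monomethylarginine, had more counts in both siRNA libraries than in siNC, without passing the test. In CPM, PRMT5 stood at 36.3 (19.8 to 60.9), 62.0 (39.3 to 93.1) and 72.7 (46.6 to 108) in the same order. Both siRNA libraries were above siNC, with overlapping intervals. The ratio to siNC was 1.71 (0.843 to 3.59) with siPRMT6-1 and 2.00 (0.996 to 4.19) with siPRMT6-2. The edgeR log2 fold change of PRMT5 was 0.88 (SE 0.586, adjusted p = 1.00).

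PRMT7 had 6, 14 and 12 counts. Its ratio to siNC was 2.43 (0.877 to 7.71) with siPRMT6-1 and 2.34 (0.812 to 7.59) with siPRMT6-2, and the edgeR log2 fold change was 1.24 (SE 0.769, adjusted p = 1.00). The siRNA libraries were above siNC and both ratio intervals include 1. PRMT7 passed the filter only through its siRNA libraries. The ratio interval lay above 1 for none of the 6 members tested, against 5.89% of all tested genes with siPRMT6-1 and 9.73% with siPRMT6-2. For PRMT5 with siPRMT6-2 the lower bound, 0.996, was just under 1.

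PRMT5-AS1 carried the most counts of the members and the narrowest intervals. Its ratio to siNC was 1.01 (0.912 to 1.11) with siPRMT6-1 and 0.878 (0.788 to 0.977) with siPRMT6-2. It was lower in siPRMT6-2 than in siPRMT6-1 as well, at 0.871 (0.781 to 0.970). These are comparisons of single libraries, and the edgeR log2 fold change was -0.09 (SE 0.38, adjusted p = 1.00). In the siPRMT6-2 library PRMT5 was above siNC and PRMT5-AS1 below it, and the difference between them was not tested.

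**Figure D2:**
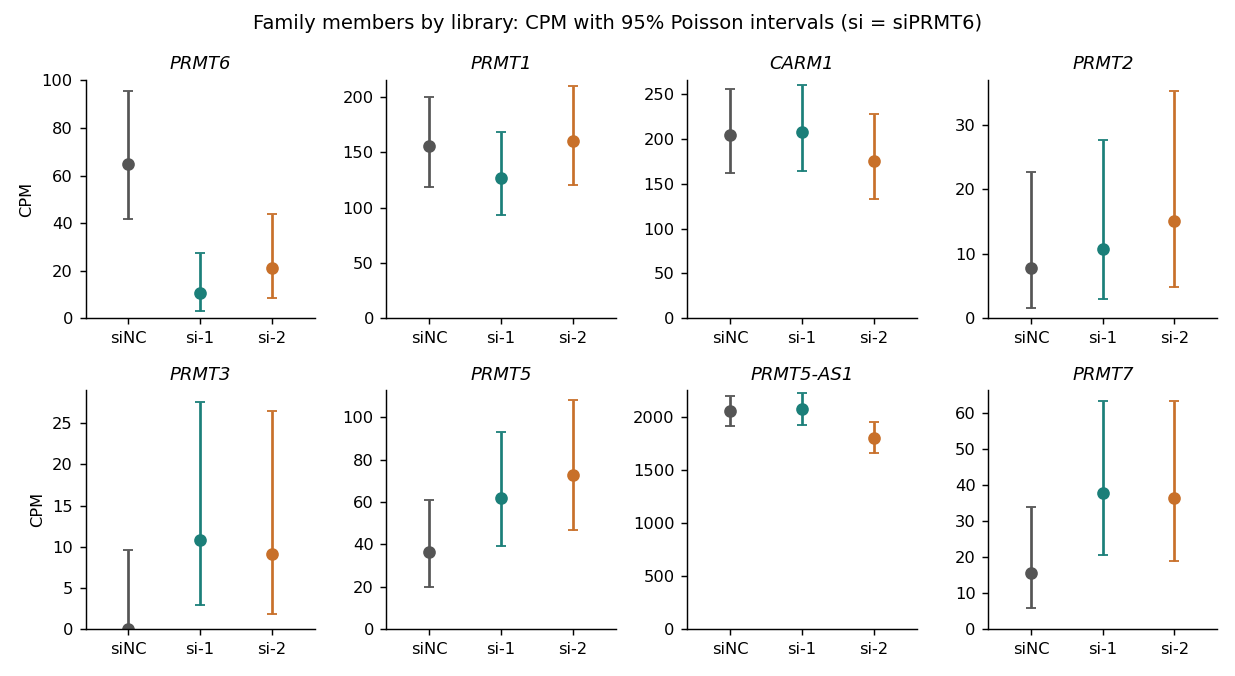
CPM of each member in the siNC library (grey), siPRMT6-1 (teal) and siPRMT6-2 (orange), on linear axes that start at 0 and differ between panels; points are single libraries and bars are 95% Poisson intervals. PRMT6 goes from 64.8 in siNC to 10.8 and 21.2, and PRMT6 is the 1 member whose siNC and siPRMT6-1 intervals do not overlap.

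Summed over the 6 other enzyme genes, the counts came to 162, 169 and 155. The ratio to siNC was 1.09 (0.870 to 1.36) with siPRMT6-1 and 1.12 (0.892 to 1.40) with siPRMT6-2. PRMT1 and CARM1 make up most of this sum. For the 4 type I genes without PRMT6 the sums were 142, 132 and 119 counts, with ratios of 0.967 (0.758 to 1.24) and 0.980 (0.761 to 1.26). No shift of the other enzymes as a whole was detectable. The intervals, from 0.870 to 1.40 times siNC, cover counting error between single libraries and do not bound a shift between conditions. Over the 6 tested members the median log2 difference was 0.02 with siPRMT6-1 and -0.07 with siPRMT6-2, beside 0.01 and 0.01 over all genes tested. With siPRMT6-1, 4 of the 6 were higher than siNC, where 50.4% of all tested genes were. With siPRMT6-2, 3 of the 6 were higher, where 50.9% were. PRMT6 and PRMT7 each passed the filter through 1 group only, which fixed their direction. Over the other 4 the medians were 0.02 and -0.07 as well, and 3 were higher with siPRMT6-1 and 2 with siPRMT6-2.

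**Figure D3:**
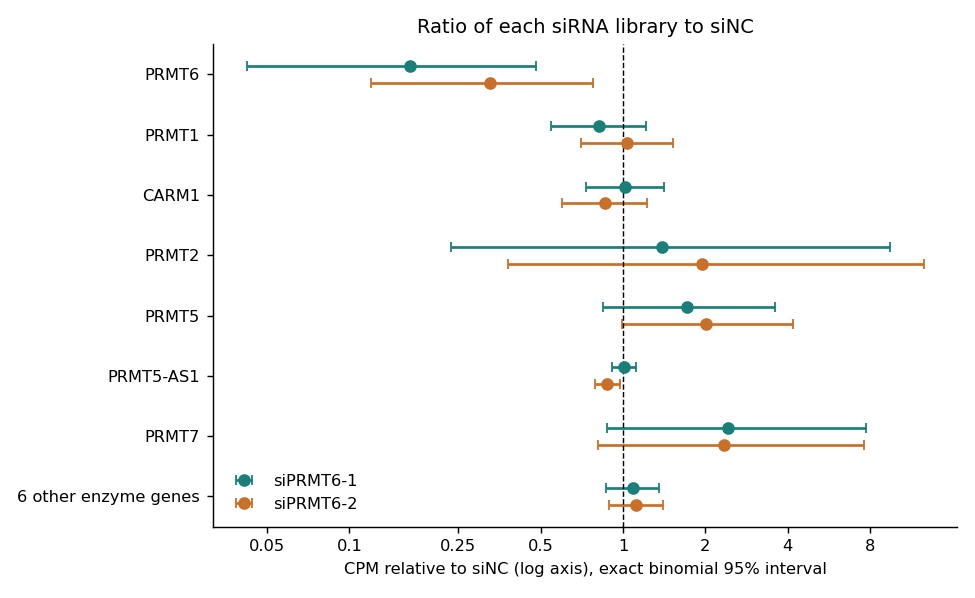
CPM of each siRNA library relative to siNC on a log axis, for siPRMT6-1 (teal) and siPRMT6-2 (orange), with exact binomial 95% intervals; the dashed line marks 1, and PRMT3 is left out because siNC had 0 counts. The PRMT6 intervals lie below 1 for both siRNAs, and the sum of the 6 other enzyme genes is at 1.09 and 1.12.

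Per length, the members spanned a wide range of levels. On the scale of CPM per kb of exon, PRMT5-AS1 ranged from 858 to 986 over the 3 libraries, PRMT1 from 80.9 to 102 and CARM1 from 59.2 to 70.0. PRMT5 ranged from 13.9 to 27.8, PRMT6 from 4.07 to 24.4 and PRMT7 from 5.02 to 12.2. PRMT3 ranged from 0 to 3.95 and PRMT2 from 0.978 to 1.905. The levels of PRMT1 and CARM1 overlapped in their counting intervals in siNC and siPRMT6-1 and did not in siPRMT6-2. In siNC, PRMT6 with 24.4 (15.8 to 36.1) and PRMT5 with 13.9 (7.58 to 23.3) could not be told apart. In siPRMT6-1, PRMT6 with 4.07 (1.11 to 10.4) lay below PRMT5 with 23.7 (15.03 to 35.6). The remaining arginine methyltransferase genes of the family were hardly detected. PRMT8, an enzyme of the nervous system, had 0 counts in every library, and PRMT9 had 2, 2 and 0.

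Genes next to the members had counts of their own, several of them higher than those of the member. SLC7A6OS starts 9 bases from PRMT7 on the opposite strand and had 51, 34 and 50 counts. Its ratio to siNC was 0.694 (0.436 to 1.09) with siPRMT6-1 and 1.15 (0.760 to 1.73) with siPRMT6-2. Its siRNA libraries lay on either side of siNC, where both were above siNC for PRMT7. SMPD3, 1061 bases from PRMT7 on the opposite strand, had 7, 9 and 9 counts. BCL2L12, 3236 bases from PRMT1 on the same strand, had 111, 98 and 84 counts, and ADM5, 235 bases away, had 1, 1 and 2. HTATIP2 near PRMT3 had 12, 9 and 5 counts, and RBM23 near PRMT5 had 2, 2 and 1. MIR5088, within PRMT1, had 0, 0 and 2 counts, C19orf38 near CARM1 and CPT1C near PRMT1 had at most 1 count in a library, and LOC101926933 by PRMT5 had at most 2.

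The genes most like PRMT6 were sought by the distance between pairs of log2 differences, over 3330 genes with at least 20 counts in siNC and 3 libraries. MRGBP, a subunit of the NuA4 acetyltransferase complex, was nearest at a distance of 0.1245, with 20, 3 and 6 counts. WASF2, an actin regulator, had 58, 14 and 19 counts (distance 0.275). ZNF395, a zinc finger gene, had 28, 5 and 11 (0.394). LOC100288181, opposite LY6K, had 31, 9 and 10 (0.596), and PITRM1, a mitochondrial protease gene opposite PITRM1-AS1, had 26, 6 and 11 (0.606). None of the 5 passed the edgeR test.

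**Figure D4:**
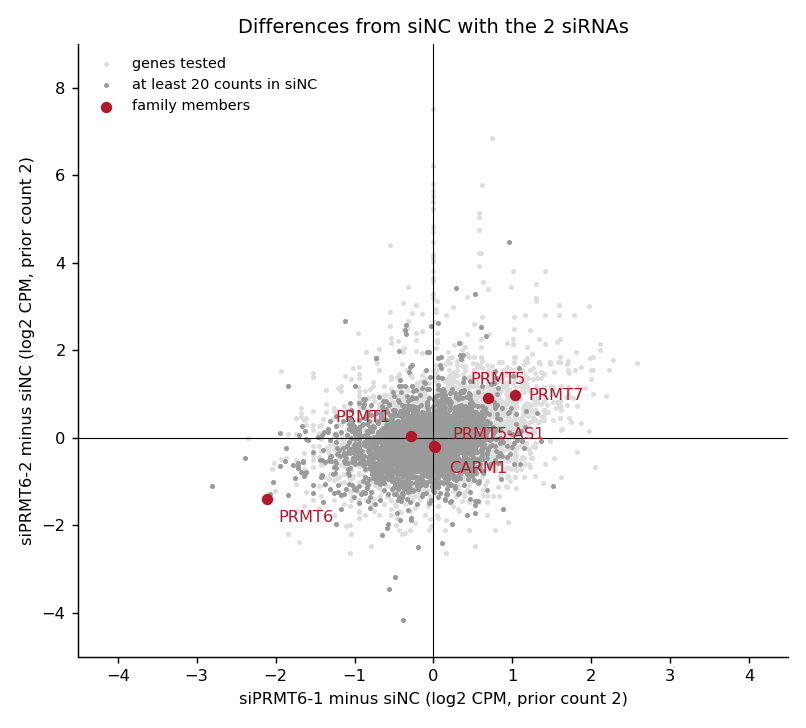
Difference from siNC in log2 CPM (prior count 2) with siPRMT6-1 (x axis) and siPRMT6-2 (y axis) for the 6803 tested genes (pale), those with at least 20 counts in siNC (grey) and the 6 tested members (red); both axes share the siNC library. PRMT6 lies at -2.11 and -1.40, PRMT5 and PRMT7 lie right of and above 0, and the points of CARM1 and PRMT5-AS1 nearly coincide.

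The methyl donor is made and recycled by the S-adenosylmethionine cycle. The list for it also holds genes that spend the donor or make spermidine and spermine, such as NNMT, SRM and SMS. It does not measure donor supply alone, and its 16 genes summed to 309, 201 and 214 counts. Of these 8 were tested and 0 passed the edgeR test. With siPRMT6-1 8 of the 8 were lower than siNC, where 49.3% of all tested genes were, and with siPRMT6-2 7 of the 8 were, where 49.1% were. AMD1, singled out with its values known, had 14, 7 and 7 counts and passed the filter only through siNC, which fixed its direction. Without it 7 of 7 and 6 of 7 were lower, with medians of -0.38 and -0.23. Both comparisons use the same siNC library. Over all 8 the median log2 differences were -0.52 and -0.30, beside 0.01 and 0.01 over all tested genes. SRM, which makes spermidine, had 55, 33 and 42 counts. NNMT, which spends the donor on nicotinamide, had 47, 36 and 34, AHCY, which clears S-adenosylhomocysteine, had 45, 35 and 33, and the spermine synthase gene SMS had 29, 23 and 32. MTR, the methionine synthase gene, is named after its values were seen. It had 45, 19 and 16 counts, and its ratio to siNC was 0.439 (0.243 to 0.767) with siPRMT6-1 and 0.416 (0.219 to 0.750) with siPRMT6-2. Its edgeR log2 fold change was -1.22 (SE 0.5, adjusted p = 1.00). MAT2A, the gene of the enzyme that makes the donor and named on the same terms, had 37, 17 and 24 counts, and it shares exon bases with GGCX on the opposite strand. MTAP, whose loss raises methylthioadenosine and restrains PRMT5, had 0, 1 and 1 counts.

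Of 6 genes for proteins that bind arginine methyltransferases, 3 were tested and 0 passed. WDR77, the obligate partner of PRMT5, had 5, 19 and 12 counts. It was 3.96 times siNC (1.43 to 13.6) with siPRMT6-1 and 2.81 times (0.920 to 10.2) with siPRMT6-2, and it shares exon bases with ATP5F1 on the opposite strand. WDR77 passed the filter only through the siRNA libraries, which fixed its direction. Of all tested genes 5.89% had an interval above 1 with siPRMT6-1. CLNS1A, which brings spliceosomal proteins to PRMT5, had 12, 18 and 14 counts, and the PRMT5 cofactor gene COPRS had 7, 6 and 7. BTG1, a binding partner of PRMT1, had 25, 13 and 37 counts, so it was lowest with siPRMT6-1 and highest with siPRMT6-2. The list's median log2 differences over the 3 tested genes were 0.56 and 0.74, and without WDR77 they were -0.12 and 0.56.

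Genes for proteins methylated by the family showed no common direction. Of 26 listed substrates 24 were tested and 0 passed the edgeR test. With siPRMT6-1, 12 were higher and 12 lower than siNC, and with siPRMT6-2 11 were higher and 13 lower. The medians were -0.03 and -0.06. PABPC1, a poly(A)-binding protein, had 1443, 1157 and 756 counts, with ratios of 0.834 (0.772 to 0.902) and 0.612 (0.560 to 0.669). It was the 1 substrate gene whose interval left out 1 with each siRNA. Of all tested genes the interval lay below 1 for 7.14% with siPRMT6-1 and 8.82% with siPRMT6-2. It lay above 1 for 5.89% and 9.73%. The share of genes that left out 1 with each siRNA was not computed. HNRNPU had 129, 113 and 111 counts, the DNA repair gene TP53BP1 had 108, 85 and 69, and SNRPD3, a spliceosomal protein gene opposite GUCD1, had 85, 90 and 65.

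Readers and antagonists of methylarginine were thinly covered. SND1, a Tudor protein that reads symmetric dimethylarginine, was the 1 reader tested, with 79, 52 and 60 counts. Its ratio to siNC was 0.685 (0.473 to 0.984) with siPRMT6-1 and 0.888 (0.624 to 1.26) with siPRMT6-2. TOP3B, SMNDC1 and TDRD3, listed together with the readers, had at most 8 counts in a library. Among the antagonists 2 of 8 were tested and 0 passed. JMJD6, reported as an arginine demethylase, had 30, 32 and 30 counts, and DDAH1, which breaks down free asymmetric dimethylarginine, had 20, 27 and 20. DDAH2 had 2, 5 and 2 counts and the deiminase gene PADI1 9, 3 and 4. METTL23, an arginine methyltransferase outside the family, had 17, 15 and 19 counts, and NDUFAF7 had 1, 3 and 2.

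**Figure D5:**
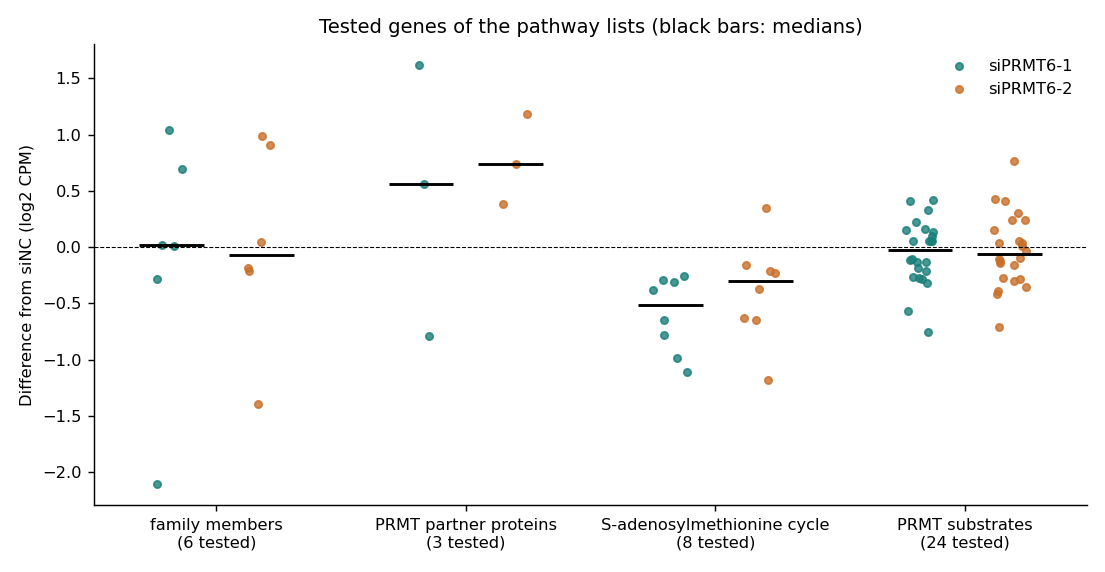
Difference from siNC in log2 CPM for every tested gene of 4 lists, with siPRMT6-1 (teal) and siPRMT6-2 (orange); each point is a gene and black bars are medians. The S-adenosylmethionine cycle genes lie mostly below 0, with medians of -0.52 and -0.30, while the 24 substrate genes scatter around 0.

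The promoters of the members, from the RefSeq tables (GRCh38.p14), were searched on both strands in the window from 250 bases before to 50 after each start. All 8 members matched. GGGCGG, the core of the Sp1 motif, was found in 6 of the 8 (PRMT1, PRMT2, PRMT3, CARM1, PRMT5-AS1 and PRMT7) and in 44.6% of 27305 promoters. It was not found in the windows of PRMT5 and PRMT6. CCAAT was found in 3 (PRMT1, PRMT5 and PRMT5-AS1), against 35.7% of all promoters, and CCGGAAG, an ETS motif, in PRMT3 alone, against 10.7%. TATAAA was found in 0 of the 8, against 11.95%, and the core of the interferon-stimulated response element, GAAA followed after any 2 bases by another GAAA, in 0 of the 8, against 3.65%. The GC content of these windows ranged from 52.3% for PRMT5-AS1 to 82.3% for CARM1, with a median of 58.3% over all promoters. These matches describe letters in a window and say nothing of binding.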

How the data were processed

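RNA of 3 libraries was measured. A stranded kit for small amounts of total RNA was used, per the labels' protocols. The submitters' processing notes name STAR 2.7.8a, featureCounts 2.0.10 and the build hg38. The deposited values are whole-number counts per gene. Per the file headers, the counting was by featureCounts 2.0.1 on exons of UCSC hg38 gene models, grouped by gene name. It took read pairs at strand setting 1 and credited a read to each overlapping gene, and the names of its input files mention UMIs and deduplication.

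Columns were matched to samples by the description in the labels. Each siRNA's values rest on a description (si2, si3) and a title (siPRMT6-1, siPRMT6-2) naming the same sample. Exon lengths and overlaps were taken from the deposited gene models. Counts of all genes were fitted with edgeR 4.0.16 in R 4.3.3 by the quasi-likelihood F-test with TMM, two-sided. The filter was filterByExpr with a minimum count of 10 and a minimum total of 15. Adjustment was by Benjamini-Hochberg, with a threshold of 0.05. Each SE was derived from the test, as the absolute log2 fold change divided by the square root of the F statistic. Simulated data used to check the fit had the same fold changes in both siRNA libraries. The interferon-stimulated genes differed between these libraries, so the check does not cover them. Alternatives were DESeq2 1.42.0, other scalings, no filter, and older edgeR tests. Named genes were all members, up to 4 genes per list with the highest mean CPM, neighbours within 5000 bases and the 5 genes nearest to PRMT6. Members and lists were chosen with earlier results of these data known.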

Additional observations from a re-analysis of the deposited data

How the results depend on the processing

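The count of called genes moved from 0 to 32 with the older quasi-likelihood fit of edgeR and to 31 with its likelihood ratio test, and none of these is a member; the cause was not tested. It was 0 with RLE size factors, without a filter, with DESeq2 and, an alternative chosen after seeing the data, in a fit of only those genes that have no opposite-strand exon overlap. The log2 fold change of PRMT6 lay between -2.06 and -2.005 over all these settings and total-count scaling, with adjusted p from 0.487 to 1.00. Leaving out an siRNA library gives a value with no test. That value is a difference in log2 CPM with a prior count of 2, so its size is not comparable with the edgeR fold changes. Without replicate 1 or 2, PRMT6 was at -1.40 and -2.11. Near 0, signs turned, and over these 2 values PRMT1 ranged from -0.284 to 0.045, CARM1 from -0.214 to 0.02 and PRMT5-AS1 from -0.188 to 0.011. PRMT1 was above 0 without the siPRMT6-1 library, and the other two were above 0 without siPRMT6-2. Other scalings moved the ratios, and counts per base the PRMT5 shares, by less than their intervals. Without PRMT5, the sum of the other enzymes was 1.03 and 1.035 times siNC with siPRMT6-1 and siPRMT6-2. The list medians without genes that passed the filter through 1 group were chosen after seeing the data. No paired analysis was possible because there is only 1 control library.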
